A study of Drosophila melanogaster with 16 samples.

Results

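Mondo, bigmax, sug and cbt are the genes of the sugar-sensing transcription factor of Drosophila melanogaster, of its binding partner and of 2 further factors that act downstream of it. They were taken by symbol from a deposited table of 10128 genes, and all 4 had a row. All 4 also passed the filter on low values, which 10114 genes passed. RNA came from whole wild-type (WT) larvae that had fed on a low-sugar diet and were moved, early in the second instar, to dyed food of either kind. The high-sugar diet (HSD) held 10% yeast with 15% sucrose and was sampled at 4 h (3 libraries), 8 h (3 libraries) and 16 h (4 libraries). The low-sugar diet (LSD) held 10% yeast alone and was sampled at 8 h (4 libraries), so diet was separated from time on the plate only at 8 h. The larvae of every group carried no transgene or mutation that the labels name. The labels mark 2 further HSD libraries, replicate 2 at 4 h and replicate 1 at 8 h, as outliers, and these were not analysed here.

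Mondo is a basic helix-loop-helix leucine zipper (bHLH-zipper) protein, the fly relative of the mammalian factors ChREBP and MondoA. These proteins respond to phosphorylated glucose, pair with the bHLH-zipper protein Mlx, whose fly form is Bigmax, and bind carbohydrate response elements near genes of sugar and lipid metabolism. In fly larvae the pair is needed for tolerance of dietary sugar. Sugarbabe (sug) is a zinc finger factor related to the mammalian GLIS proteins that promotes genes of fatty acid synthesis, and Cabut (cbt) is a zinc finger repressor of the KLF family that connects sugar sensing with energy metabolism and the circadian clock.

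The unit throughout is the normalised read count, a read count that the authors scaled for the size of the library. Each library held between 16300308 and 25284073 counted reads, and a single library gave between 183 and 6268 reads for any of the 4 genes, far above the 3-read level of 0.117 to 0.182. Differences are on the log2(value + 0.5) scale with their standard error (SE), and adjusted p-values are two-sided, from limma, with Benjamini-Hochberg adjustment over 10114 genes and a threshold of 0.05. Whether replicate libraries stem from separate batches of larvae is not in the labels, so a p-value here sets a difference against the spread of these libraries alone, part of which could be technical. Libraries differed in cuticle transcripts, within groups and between them. The cuticle gene TwdlJ lay between 0 and 0.890 in the HSD 4 h libraries and between 15.8 and 42.4 in the HSD 8 h libraries. It was 12.5 in HSD 16 h replicate 2 and at most 0.147 in the other HSD 16 h libraries, while the LSD libraries held 0.938, 17.4, 33.6 and 0.727 in replicates 1 to 4. The 11 cuticle and molt markers summed to between 552 and 796 at 4 h, 519 and 1058 at 8 h and 247 and 339 at 16 h on HSD, and to between 606 and 1191 on LSD. These markers, TwdlJ among them, did not move one way. Against LSD 1 rose and 2 fell at 4 h, and 2 rose and 0 fell at 8 h. At 16 h 4 rose and 5 fell. Over all genes 12.8%, 17.5% and 19.4% rose and 11.4%, 16.9% and 20.4% fell. TwdlJ was chosen after its values were seen and does not stand for the others. Genes that mark fat body, gut, muscle, neurons and hemocytes were all detected where they had a row. Of 9 fat body markers only 4 had one, and Lsp2, Fbp1, Fbp2, Lsp1alpha and Lsp1beta were not measured. At 8 h against LSD 5 of 8 neuron markers and 3 of 9 muscle markers fell, and 5 of 9 gut markers rose and 2 fell, against 17.5% up and 16.9% down over all genes. Of the muscle markers 7 of 9 fell at 16 h, against 20.4% of all genes, and they summed to between 35242 and 37790 in HSD 16 h libraries and to between 40999 and 49167 in LSD libraries. The part of these transcripts in the differences below was not tested. In whole larvae a change in the number of cells that express a gene and a change in its RNA per cell cannot be told apart.

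In the annotation of BDGP6.54, Mondo (FBgn0032940) lies on chromosome 2L from 21286078 to 21310050 on the minus strand, with 11 transcripts and 12 merged exons of 5170 bases in all. The chemoreceptor gene Gr39a lies in its introns on the opposite strand and shares 0 exonic bases with it. Bigmax (FBgn0039509) is a compact gene on 3R from 27287366 to 27288526 on the minus strand, with 3 exons of 954 bases, of which 83 bases (8.70%) overlap exons of CG3368 on the other strand. Sug (FBgn0033782) lies on 2R from 12924567 to 12930644 on the plus strand, with 3 merged exons of 1572 bases, and shares 98 bases (6.23%) with CG13319 on the same strand. Cbt (FBgn0043364) is a single stretch of exon of 3243 bases on 2L from 476446 to 479688 on the minus strand, inside the locus of ush, and shares 0 exonic bases with it.

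Mondo, the sensor, rose on HSD in steps. Its normalised read count was 187, 200.4 and 179 in HSD 4 h replicates 1, 3 and 4, 272, 266 and 266 in HSD 8 h replicates 2, 3 and 4, and 255, 261, 285 and 277 in HSD 16 h replicates 1 to 4, against 119, 141, 115 and 133 in LSD replicates 1 to 4. Every HSD library lay above every LSD library, the HSD 4 h libraries formed a middle level, and the HSD 8 h and 16 h libraries overlapped at the top. The group means were 189 ± 10.7 at 4 h, 268 ± 3.34 at 8 h and 269 ± 14.1 at 16 h on HSD, and 127 ± 12.1 on LSD (SD, n = 3, 3, 4 and 4). Against LSD the log2 difference was 0.58 at 4 h (SE 0.07, limma adjusted p = 1.04e-04), 1.08 at 8 h (SE 0.07, adjusted p = 9.19e-07) and 1.09 at 16 h (SE 0.07, adjusted p = 2.66e-07). Mondo was the one gene of the 4 whose level passed the test between 8 h and 4 h of HSD (log2 0.51, SE 0.08, limma adjusted p = 0.00428), which 4.71% of all genes passed as higher, and these 2 groups did not overlap. The cuticle gene TwdlJ was at most 0.890 in the HSD 4 h libraries and at least 15.8 in the HSD 8 h libraries. Of the 11 cuticle and molt markers 3 rose, 0 fell and 8 did not pass in this step. In HSD 16 h replicates 1, 3 and 4, where TwdlJ was at most 0.147, Mondo lay at 255, 285 and 277. The part of cuticle transcripts in the levels of Mondo was not tested. Between 16 h and 8 h the log2 difference of Mondo was 0.00, with a 95% interval from -0.15 to 0.16.

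Bigmax, the gene of the partner of Mondo, rose at all 3 times, and its log2 differences from LSD were the smallest of the 4 at 8 h and 16 h; differences between genes were not tested. It stood at 32.1, 25.4 and 23.7 in HSD 4 h replicates 1, 3 and 4, at 23.2, 24.5 and 19.7 in HSD 8 h replicates 2, 3 and 4, and at 25.7, 21.8, 25.1 and 20.9 in HSD 16 h replicates 1 to 4, against 13.7, 13.1, 13.5 and 17.8 in LSD replicates 1 to 4. The HSD libraries all lay above the LSD libraries, but the gap was narrow: the lowest HSD library had 19.7 and the highest LSD library, replicate 4, had 17.8. Replicate 1 of HSD 4 h was the highest of the 14 libraries. The means were 27.1 ± 4.43, 22.5 ± 2.48 and 23.4 ± 2.38 on HSD at 4, 8 and 16 h, and 14.5 ± 2.21 on LSD (SD, n = 3, 3, 4 and 4). The log2 differences from LSD were 0.88 at 4 h (SE 0.13, limma adjusted p = 3.57e-04), 0.62 at 8 h (SE 0.13, adjusted p = 0.00310) and 0.68 at 16 h (SE 0.12, adjusted p = 9.02e-04). Among the HSD times no difference in bigmax passed the test, with log2 -0.26 for 8 h against 4 h (95% interval -0.56 to 0.05, limma adjusted p = 0.270), 0.06 for 16 h against 8 h (-0.23 to 0.34, adjusted p = 0.781) and -0.20 for 16 h against 4 h (-0.49 to 0.08, adjusted p = 0.257). CG3368, which overlaps bigmax on the other strand, lay at 34.9 ± 1.47, 39.0 ± 0.976 and 41.0 ± 2.09 on HSD at 4, 8 and 16 h and at 36.9 ± 2.31 on LSD. Its log2 differences were -0.08, 0.08 and 0.15, the last at the threshold (limma adjusted p = 0.0496, 0.00908 to 0.150 over the alternatives).

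Sug had the largest log2 difference from LSD of the 4 at each HSD time. Its value was 94.6, 90.4 and 75.3 in HSD 4 h replicates 1, 3 and 4, 93.1, 114 and 95.7 in HSD 8 h replicates 2, 3 and 4, and 122, 114, 119.6 and 121 in HSD 16 h replicates 1 to 4, against 10.7, 12.9, 10.1 and 11.1 in LSD replicates 1 to 4. The LSD libraries lay in a narrow band, and the lowest HSD library had 75.3, against 12.9 in the highest LSD library. The means were 86.8 ± 10.2, 101 ± 11.6 and 119 ± 3.76 on HSD at 4, 8 and 16 h, and 11.2 ± 1.18 on LSD (SD, n = 3, 3, 4 and 4). The log2 difference from LSD was 2.90 at 4 h (SE 0.10, limma adjusted p = 3.93e-09), 3.12 at 8 h (SE 0.10, adjusted p = 1.33e-09) and 3.36 at 16 h (SE 0.09, adjusted p = 1.34e-10), where it came to 10.3-fold. By the size of the rise sug ranked 7, 19 and 13 of 10114 genes at 4, 8 and 16 h, and by the p-value 1, 1 and 2.

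Within HSD, sug was higher at 16 h than at 4 h (log2 0.46, SE 0.10, limma adjusted p = 0.00316), and these groups did not overlap. Neither single step passed the test: 8 h against 4 h gave 0.22 (95% interval -0.01 to 0.45, adjusted p = 0.210) and 16 h against 8 h gave 0.24 (0.03 to 0.46, adjusted p = 0.0834). The second step passed without HSD 8 h replicate 3, the highest of its group (log2 0.33, limma adjusted p = 0.0345). CG13319, which overlaps the start of sug on the same strand, lay at 17.6 ± 1.36, 16.1 ± 1.32 and 14.7 ± 0.653 on HSD at 4, 8 and 16 h, and at 11.3 ± 0.403 on LSD (SD, n = 3, 3, 4 and 4). It rose by 0.61, 0.48 and 0.36 on the log2 scale (limma adjusted p = 4.36e-05, 2.56e-04 and 9.02e-04) and was lower at 16 h than at 4 h of HSD (log2 -0.25, adjusted p = 0.0140). Reads in the shared bases cannot be told apart.

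Cbt, the repressor gene, rose at all 3 times, with most of the difference from LSD at 8 h already there at 4 h. It lay at 120.4, 122 and 106 in HSD 4 h replicates 1, 3 and 4, at 119.8, 139 and 126 in HSD 8 h replicates 2, 3 and 4, and at 129, 125, 131 and 131 in HSD 16 h replicates 1 to 4, against 42.7, 55.6, 42.0 and 48.9 in LSD replicates 1 to 4. The lowest HSD library, at 106, lay well above the highest LSD library, at 55.6, and the HSD 16 h libraries lay close together. The means were 116 ± 9.04, 128 ± 9.68 and 129 ± 2.79 on HSD at 4, 8 and 16 h, and 47.3 ± 6.34 on LSD (SD, n = 3, 3, 4 and 4). The log2 difference from LSD was 1.29 at 4 h (SE 0.09, limma adjusted p = 1.79e-06), 1.44 at 8 h (SE 0.09, adjusted p = 5.72e-07) and 1.45 at 16 h (SE 0.09, adjusted p = 1.82e-07). No pair of HSD times passed the test: 8 h against 4 h gave 0.15 (95% interval -0.07 to 0.36, adjusted p = 0.383), 16 h against 8 h gave 0.01 (-0.19 to 0.22, adjusted p = 0.931) and 16 h against 4 h gave 0.16 (-0.04 to 0.36, adjusted p = 0.209), although the 16 h and 4 h libraries did not overlap. The surrounding gene ush, a zinc finger cofactor of GATA factors, had log2 differences from LSD of 0.01, -0.05 and -0.03 (limma adjusted p = 0.923, 0.578 and 0.738).

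**Figure D1:**
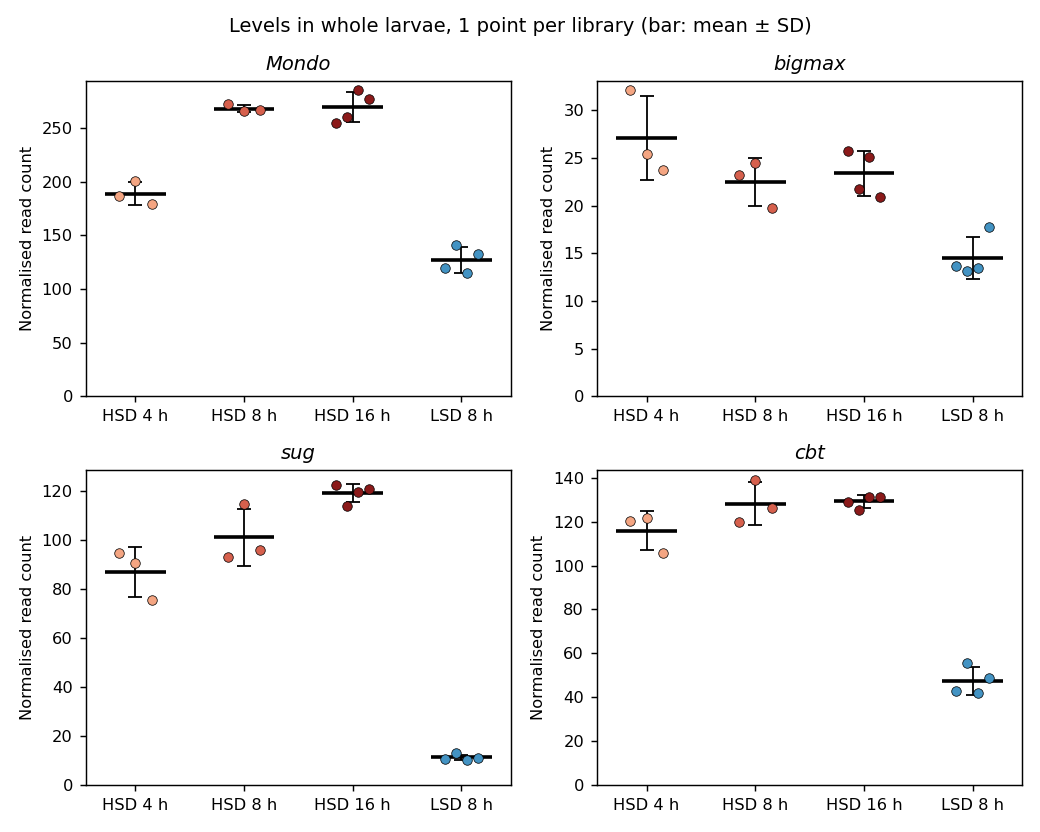
Normalised read counts of Mondo, bigmax, sug and cbt (vertical axes, each from 0) in the HSD 4 h, 8 h and 16 h groups and the LSD 8 h group, with 1 point per library and bars for the mean ± SD (n = 3, 3, 4 and 4). Every HSD library lies above every LSD library for each gene, with the narrowest gap for bigmax, where LSD replicate 4 has 17.8.

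Of the 4 genes, 4 rose and did not overlap with LSD at each HSD time. Among all genes tested, 12.8% rose at 4 h, 17.5% at 8 h and 19.4% at 16 h, and 14.9%, 19.4% and 18.4% were higher without overlap. The 3 comparisons share the LSD libraries, so they are not independent of each other. At 8 h against 4 h of HSD 1 of the 4 rose, Mondo, as did 4.71% of all genes. Mondo was also higher without overlap there, as were 17.2% of all genes. Between 16 h and 8 h 0 of the 4 passed in limma, against 29.5% of all genes, and 1 of the 4, sug, was under an unadjusted 0.05. At 16 h against 4 h 2 of the 4 rose, Mondo (log2 0.51, limma adjusted p = 2.42e-04) and sug, against 16.6% of all genes. A further gene, cbt, was higher without overlap there, as were 21.9% of all genes.

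Without LSD replicates 2 and 3 and HSD 16 h replicate 2, the libraries of these 2 groups with TwdlJ at 12.5 or more, each of the 12 differences from LSD passed the test. At 8 h this removal widens the difference in TwdlJ, since each HSD 8 h library had it at 15.8 or more, so the 8 h values do not bear on cuticle transcripts. In LSD replicates 2 and 3, where TwdlJ was also high, Mondo lay at 141 and 115, bigmax at 13.1 and 13.5, sug at 12.9 and 10.1 and cbt at 55.6 and 42.0, each below every HSD 8 h library. The removal and these values rest on TwdlJ alone. The 11 cuticle and molt markers summed to between 247 and 339 in all HSD 16 h libraries and to between 606 and 1191 in all LSD libraries. The part of cuticle transcripts in the differences from LSD was not tested. With the 3 libraries left out Mondo gave log2 differences of 0.58, 1.09 and 1.11 at 4, 8 and 16 h, sug gave 2.93, 3.15 and 3.41, and cbt gave 1.33, 1.48 and 1.50. Bigmax came closest to the threshold, with 0.76 at 4 h (limma adjusted p = 0.0103), 0.51 at 8 h (0.0415) and 0.59 at 16 h (0.0227). The authors' deposited table gave log2 fold changes at 8 h against LSD of 1.084 for Mondo, 0.645 for bigmax, 3.171 for sug and 1.446 for cbt.

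**Figure D2:**
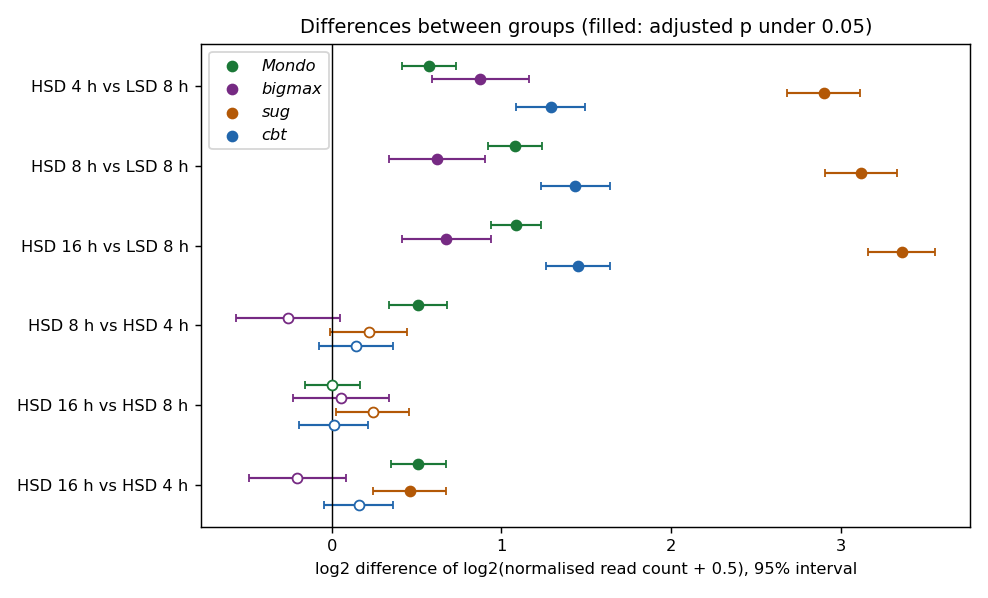
Log2 differences of Mondo, bigmax, sug and cbt (horizontal axis, log2(normalised read count + 0.5)) with 95% intervals for 3 comparisons of HSD with LSD and 3 among HSD times, first-named group minus second. Filled points have a limma adjusted p under 0.05: all 12 against LSD, Mondo in 8 h against 4 h, and Mondo and sug in 16 h against 4 h.

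In group means, the share of the 16 h difference from LSD that was present at 4 h varied between the 4 genes. Taking the mean at 16 h minus the LSD mean as 100%, Mondo had 43.5% of it at 4 h and 99.2% at 8 h. Sug had 70.1% at 4 h and 83.3% at 8 h, and cbt had 83.8% and 98.8%. Bigmax stood at 142% at 4 h and 89.9% at 8 h, so its highest mean was the earliest, although its HSD times did not differ beyond their spread. Much of this lay in HSD 4 h replicate 1, at 32.1, against 25.4 and 23.7 in replicates 3 and 4. Without replicate 1 the log2 difference of bigmax at 8 h against 4 h was -0.13, against -0.26 with it. These shares describe group means, and neither they nor their differences between genes were tested. LSD was sampled at 8 h only, so at 4 h and 16 h diet and time on the plate cannot be told apart. A further library pattern ran through the set: HSD 4 h replicate 4 was the lowest of its group for all 4 genes, and LSD replicate 2 was the highest of its group for Mondo, sug and cbt and the lowest for bigmax.

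To set the genes beside each other, levels were divided by the length of the merged exons in kilobases. On HSD at 16 h the order of levels per kilobase was sug (75.7 ± 2.39), Mondo (52.1 ± 2.73), cbt (39.9 ± 0.860) and bigmax (24.5 ± 2.50). On LSD the order was Mondo (24.5 ± 2.34), bigmax (15.2 ± 2.32), cbt (14.6 ± 1.95) and sug (7.13 ± 0.749), in which bigmax and cbt were closer than their spread (SD, n = 4 each). Sug was thus the lowest of the 4 per kilobase on LSD and the highest at every HSD time, at 55.2 ± 6.46 at 4 h and 64.3 ± 7.38 at 8 h (n = 3 each). At 4 h Mondo (36.5 ± 2.07) and cbt (35.8 ± 2.79) lay within each other's spread, and at 8 h Mondo (51.9 ± 0.646) lay above cbt (39.5 ± 2.98) in each of the 3 libraries.

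Ratios between genes within a library do not depend on how the library was scaled. The level of sug per kilobase was 1.54 ± 0.0752 times that of cbt at 4 h, 1.62 ± 0.0695 times at 8 h and 1.90 ± 0.0412 times at 16 h on HSD, and 0.490 ± 0.0225 times on LSD (SD, n = 3, 3, 4 and 4). In all 10 HSD libraries the ratio was between 1.47 and 1.96, and in the 4 LSD libraries it was between 0.468 and 0.519. The 16 h libraries, from 1.87 upward, did not overlap with the 4 h and 8 h libraries. The ratio of cbt to Mondo was 0.979 ± 0.0456 at 4 h, 0.763 ± 0.0652 at 8 h and 0.766 ± 0.0303 at 16 h, against 0.593 ± 0.0252 on LSD.

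The ratio of the sensor to its partner had its lowest mean at 4 h. Mondo per kilobase was 1.31 ± 0.205 times bigmax in HSD 4 h libraries, 2.22 ± 0.250 times in HSD 8 h libraries and 2.14 ± 0.255 times in HSD 16 h libraries, against 1.63 ± 0.254 times in LSD libraries (SD, n = 3, 3, 4 and 4). The HSD 4 h libraries, from 1.07 to 1.46, and the LSD libraries, from 1.38 to 1.98, overlapped, as did the HSD 16 h libraries, from 1.83 to 2.44, with LSD. The HSD 8 h libraries, from 2.00 to 2.49, lay just above the highest LSD library, replicate 2. No ratio was tested, and all describe RNA, not protein.

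**Figure D3:**
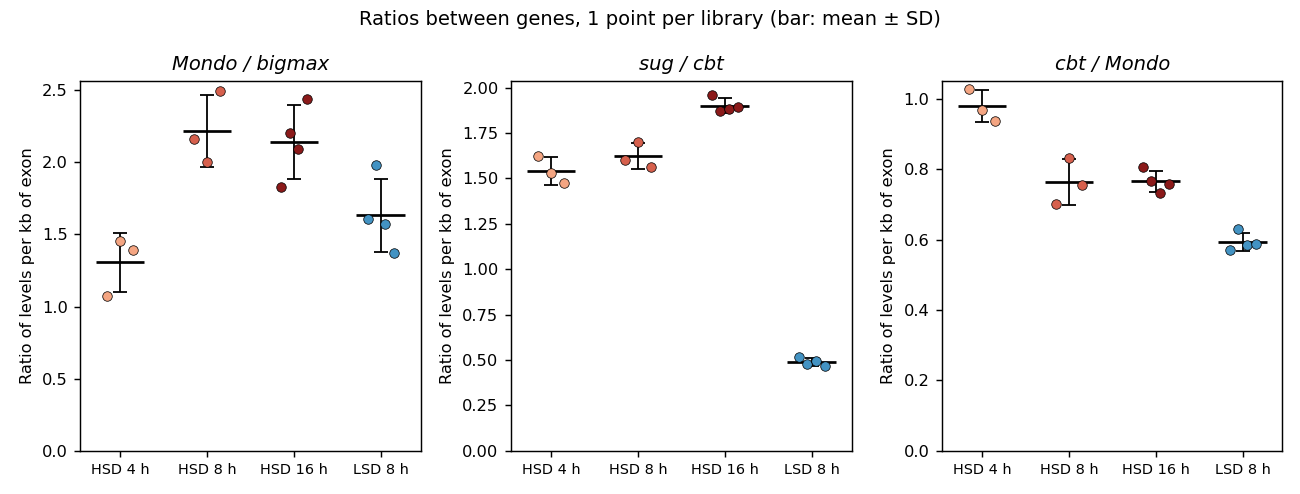
Ratios of levels per kilobase of merged exon (vertical axes, from 0) for Mondo over bigmax, sug over cbt and cbt over Mondo, with 1 point per library and bars for the mean ± SD (n = 3, 3, 4 and 4). The sug to cbt ratio lies between 1.47 and 1.96 in HSD libraries and between 0.468 and 0.519 in LSD libraries.

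Enzymes of lipogenesis, glycolysis and the pentose phosphate pathway, the classes of gene that Mondo and Sugarbabe are known to promote, rose with the 4 regulators. Of 14 measured genes of this list, 12 rose and 0 fell at 4 h, 13 rose and 0 fell at 8 h, and 13 rose and 0 fell at 16 h, with a median log2 difference of 1.14, 1.47 and 1.51 against 0.01, -0.01 and -0.00 over all genes. Of all genes 12.8%, 17.5% and 19.4% rose and 11.4%, 16.9% and 20.4% fell at these times. Pgd, an oxidative pentose phosphate enzyme, lay at 403 ± 22.0, 420 ± 2.32 and 484 ± 29.4 on HSD at 4, 8 and 16 h and at 113 ± 6.28 on LSD (log2 1.83, 1.89 and 2.09; limma adjusted p = 3.93e-09, 1.33e-09 and 1.34e-10). Desat1, which puts double bonds into fatty acids, rose by 1.81, 2.25 and 2.36 (SE 0.09, 0.09 and 0.08), and AcCoAS, which makes acetyl-CoA, rose by 2.12, 2.56 and 2.35 (SE 0.10, 0.10 and 0.09). Phosphofructokinase (Pfk) did not pass at any time, with log2 differences of -0.09, -0.03 and -0.02, except under quantile normalization at 16 h (0.0309). At 16 h the count includes Aldh-III, whose call (log2 0.30, limma adjusted p = 0.0345) was lost on leaving out HSD 16 h replicate 1 (0.0615), 3 (0.0725) or 4 (0.0869), or replicate 1 (0.101) or 3 (0.0976) of LSD, in a fit of the compared groups alone (0.0740) and with a replicate block (0.0509).

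Relatives of the 4 factors by protein family were measured beside them. Of 7 bHLH-zipper genes related to Mondo and Bigmax, 0 rose and 1 fell at 4 h, 1 rose and 0 fell at 8 h, and 1 rose and 0 fell at 16 h (medians 0.10, 0.03 and 0.09), and of all genes 11.4% fell at 4 h and 17.5% and 19.4% rose at 8 h and 16 h. The rises at 8 h became 2 without HSD 8 h replicate 4 or LSD replicate 4, and those at 16 h became 2 without LSD replicate 2. Myc, the growth regulator, fell at 4 h by 0.48 on the log2 scale (limma adjusted p = 0.0133), a call lost without LSD replicates 2 and 3 and HSD 16 h replicate 2 (0.0595) or without HSD 4 h replicate 1 (0.0719), and in a fit of the compared groups alone (0.0581). SREBP, a regulator of lipid synthesis, rose at 8 h (log2 0.32, adjusted p = 0.0285), a call lost without HSD 8 h replicate 2 (0.121), without LSD replicate 1 (0.0719), without LSD replicate 3 (0.0587) and without LSD replicates 2 and 3 and HSD 16 h replicate 2 together (0.0903). That call was also lost under quantile normalization (0.0921), in a fit of the compared groups alone (0.101) and with a replicate block (0.0636). Mnt, an antagonist of Myc, rose at 16 h (log2 0.31, adjusted p = 0.0186), which ended without LSD replicates 2 and 3 and HSD 16 h replicate 2 (0.169). At 8 h Mnt did not pass (adjusted p = 0.0719), but it did with array weights (0.0493), on leaving out HSD 8 h replicate 4 (0.0433) and on leaving out LSD replicate 4 (0.0198). Max, the shared partner of Myc and Mnt, had log2 differences of 0.14, -0.14 and -0.00, none of which passed.

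Of 7 measured KLF and SP zinc finger genes related to cbt, 0 rose and 0 fell at 4 h and at 8 h, and 0 rose and 1 fell at 16 h (CG42741, log2 -0.54, limma adjusted p = 0.00524; medians -0.04, -0.06 and 0.01). Among all genes 12.8%, 17.5% and 19.4% rose and 11.4%, 16.9% and 20.4% fell at 4, 8 and 16 h. At 8 h CG42741, Sp1 and luna gave -0.34, -0.21 and 0.09, and none of these passed (adjusted p = 0.0765, 0.442 and 0.461), although CG42741 did without HSD 16 h replicate 3 (0.0352), in a fit of the compared groups alone (0.0363) and with array weights (0.0376). Of 3 genes of the GLI, GLIS and ZIC class related to sug, lmd, a muscle factor, rose at 8 h (log2 0.72, adjusted p = 0.00446) and fell at 16 h (log2 -0.65, adjusted p = 0.00451), at means of 3.93 ± 0.187 and 1.26 ± 0.423 against 2.20 ± 0.167 on LSD. The other members, opa and ci, did not pass at any time.

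**Figure D4:**
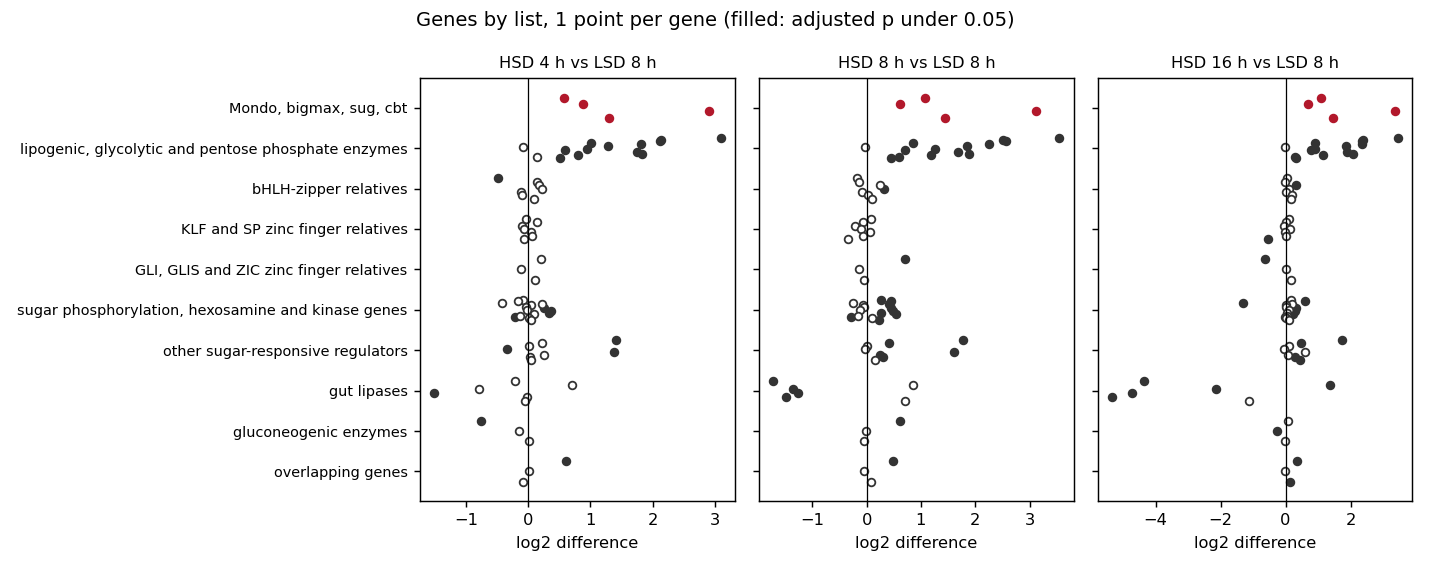
Log2 differences from LSD (horizontal axes, which differ in range between the panels) for HSD at 4 h, 8 h and 16 h, with 1 point per gene and genes grouped by list. Filled points have a limma adjusted p under 0.05. Mondo, bigmax, sug and cbt (red, top row) and most of the lipogenic, glycolytic and pentose phosphate enzymes lie to the right, and several gut lipases lie to the left. Of the family relatives, lmd lies at 0.72 at 8 h and -0.65 at 16 h, and CG42741 at -0.54 at 16 h.

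Genes that feed the sensor or modify it gave a mixed picture. Of 15 measured genes of sugar phosphorylation, the hexosamine route and the sugar-linked kinases, 3 rose and 1 fell at 4 h, 8 rose and 1 fell at 8 h, and 4 rose and 1 fell at 16 h (medians 0.01, 0.22 and 0.09). Over all genes 12.8%, 17.5% and 19.4% rose and 11.4%, 16.9% and 20.4% fell. In the 26 alternatives between 1 and 4 of the 15 rose at 4 h and between 3 and 7 at 16 h. The count of 8 was 5 without HSD 8 h replicate 3 or replicate 4, and the 1 that fell at 8 h became 2 without HSD 8 h replicate 2 or LSD replicate 4. At 8 h the smallest adjusted p-values were those of SNF4Agamma, the gamma subunit of the AMP-activated kinase (log2 0.54, SE 0.08, limma adjusted p = 2.62e-04), of the kinase Sik3 (0.44, SE 0.07, 3.86e-04) and of the kinase subunit AMPKalpha (0.49, SE 0.09, 8.19e-04). The hexokinase Hex-C, chosen after its values were seen, gave -0.16, 0.44 and 0.59, of which the last 2 passed (adjusted p = 0.00764 and 7.00e-04). Gfat1, the entry enzyme of the hexosamine route, likewise chosen, fell at 16 h by 1.31 on the log2 scale (adjusted p = 2.44e-04).

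Of 8 other regulators known to respond to sugar, 2 rose and 1 fell at 4 h, 5 rose and 0 fell at 8 h, and 4 rose and 0 fell at 16 h (medians 0.13, 0.28 and 0.36). Over all genes 12.8%, 17.5% and 19.4% rose and 11.4%, 16.9% and 20.4% fell. The activin ligand gene daw lay at 46.1 ± 4.85, 59.2 ± 2.40 and 58.2 ± 1.40 on HSD at 4, 8 and 16 h and at 17.1 ± 2.49 on LSD (log2 1.41, 1.77 and 1.75). Smox, which transmits activin signals, gave 0.22, 0.41 and 0.46, of which the last 2 passed (limma adjusted p = 0.00225 and 5.09e-04). Thor, a repressor of translation initiation, gave 1.37, 1.61 and 0.59, of which the first 2 passed (adjusted p = 0.00145 and 3.98e-04), and at 16 h it passed only without LSD replicate 4 (0.00169), under quantile normalization and with array weights. The 1 that fell at 4 h was foxo (log2 -0.34, adjusted p = 0.0409). With single libraries left out, foxo passed only when the one left out was HSD 4 h replicate 3, HSD 16 h replicate 1 or 3, or LSD replicate 3. In the same list the 2 that rose became 4 without LSD replicate 2.

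Gut lipases and gluconeogenic enzymes, further genes of lipid and sugar handling, did not all move one way. Of 6 measured gut lipase genes, 0 rose and 1 fell at 4 h, 0 rose and 4 fell at 8 h, and 1 rose and 4 fell at 16 h (medians -0.13, -1.31 and -3.25). Among all genes 12.8%, 17.5% and 19.4% rose and 11.4%, 16.9% and 20.4% fell. The 4 lipase calls at 8 h rested on single libraries: the count was 0 without HSD 8 h replicate 4 or LSD replicate 4, and 1 without HSD 8 h replicate 3 or LSD replicate 1 or 2. It was also 1 with a replicate block, when CG6271 (0.0777), CG6277 (0.0585) and CG8093 (0.0547) no longer passed. A fit of the compared groups alone likewise gave 1, without CG6283 (0.0729), CG6277 (0.0864) and CG8093 (0.114), and a pseudocount of 0.1 gave 2. At 16 h CG6283 lay at 0.880 ± 0.378 on HSD and at 62.6 ± 31.8 on LSD (log2 -5.34, SE 0.41, limma adjusted p = 1.73e-06), CG6271 fell by 4.72 (adjusted p = 2.44e-06) and CG6277 by 2.15 (adjusted p = 0.00181). CG6277 was at 0.0450 ± 0.0372 on HSD at 16 h, under the 3-read level, so the size of its fall depends on the added 0.5. CG6295 rose at 16 h (log2 1.38, adjusted p = 0.0233), which ended without HSD 16 h replicate 1 (0.0520), 3 (0.0557) or 4 (0.0534), and the single fall at 4 h, that of CG6271, ended without HSD 4 h replicate 3 (0.0820) or 4 (0.0776) and in a fit of the compared groups alone (0.0831). How the counting treated reads shared by similar gene copies was not examined. Single values of the lipases, and of the amylase genes below, are therefore uncertain. Gut markers summed to between 199.6 and 227 in HSD 16 h libraries and to between 136 and 264 in LSD libraries, but their members moved apart. At 16 h 5 of 9 rose and 2 fell, against 19.4% up and 20.4% down over all genes. The 2 gut markers that fell were amylase genes, whose values may not be independent of each other. Amy-d averaged 0.559 in HSD 16 h libraries (0.0455 to 1.56) and 21.7 in LSD libraries (10.8 to 30.5), and Amy-p averaged 1.52 in HSD 16 h libraries (0.683 to 3.52) and 48.2 in LSD libraries (25.95 to 69.1) (log2 -4.47 and -4.70, limma adjusted p = 6.98e-06 and 3.19e-06). The part of these markers in the lipase falls was not tested.

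Of the 3 measured gluconeogenic genes 0 rose and 1 fell at 4 h, 1 rose and 0 fell at 8 h, and 0 rose and 1 fell at 16 h. Over all genes 12.8%, 17.5% and 19.4% rose and 11.4%, 16.9% and 20.4% fell. CG10924, which encodes a phosphoenolpyruvate carboxykinase, the enzyme class that Cabut is known to repress, gave log2 differences of -0.76, 0.62 and 0.08 (limma adjusted p = 0.00506, 0.0121 and 0.704), and the rise at 8 h ended without HSD 8 h replicate 2 (0.0554). Pepck1, another gene of that enzyme class, had no row and was not measured. The count of 1 at 4 h became 2 without LSD replicate 1, when fbp also passed (0.0422). At 16 h the gene that fell was fbp, fructose-1,6-bisphosphatase (log2 -0.26, adjusted p = 0.00751), which ended without LSD replicates 2 and 3 and HSD 16 h replicate 2 (0.0803) and under quantile normalization (0.145). The third, G6P, lay at 1.38 ± 0.0607, 1.34 ± 0.319 and 1.37 ± 0.236 on HSD and at 1.41 ± 0.464 on LSD.

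Finally, the genes with the most similar course over the 14 libraries were found for each of the 4 factors. Likeness was the root mean square difference of centred log2 profiles, over 8632 genes with a mean of at least 5, and it is a description with no test. For Mondo the 5 closest were CG11876 (0.10 log2 units), CG10623 (0.11), Galt (0.11), l(1)G0334 (0.11) and Dic1 (0.12). In current nomenclature CG11876 is Pdhb and l(1)G0334 is Pdha, the beta and alpha subunits of the pyruvate dehydrogenase E1 enzyme, Galt is an enzyme of galactose breakdown and Dic1 is a mitochondrial dicarboxylate carrier. CG11876 lay at 389, 518 and 542 on HSD at 4, 8 and 16 h and at 248 on LSD.

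For bigmax the closest were CG9674 (0.13), AGBE (0.15), CG8066 (0.15), CG1882 (0.15) and CG9336 (0.15), all highest at 4 h among the HSD times. They were picked for a course like that of bigmax, which did not pass the test between any HSD times. AGBE, the glycogen branching enzyme, lay at 186, 168 and 155 on HSD at 4, 8 and 16 h and at 95.5 on LSD. For sug the closest was FASN1, fatty acid synthase, at 0.25, followed by CG7142 (0.32), CG4269 (0.40), CG32444 (0.40) and ACC, acetyl-CoA carboxylase (0.41). FASN1 lay at 3322, 4535 and 4271 on HSD and at 392 on LSD (log2 3.09, 3.55 and 3.46). For cbt the closest were CG8036 (0.09), Pino (0.10), CG8034 (0.11), muc (0.13) and AkhR (0.13), the last being the receptor of adipokinetic hormone, which lay at 30.3, 35.8 and 34.0 on HSD and at 12.4 on LSD.

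Among themselves the 4 genes were less alike than this. Cbt came nearest to Mondo, at rank 230 of 8632 with 0.26 log2 units, and Mondo ranked 56 from the side of cbt. Bigmax ranked 705 from the side of Mondo (0.34). Sug was at 0.80 from cbt, 1.01 from Mondo and 1.13 from bigmax. From the side of sug, cbt ranked 52, Mondo 173 and bigmax 360 of 8632. Sug itself ranked 6948 from the side of cbt, 8115 from that of Mondo and 8312 from that of bigmax. This measure takes in the size of a rise as well as its course.

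**Figure D5:**
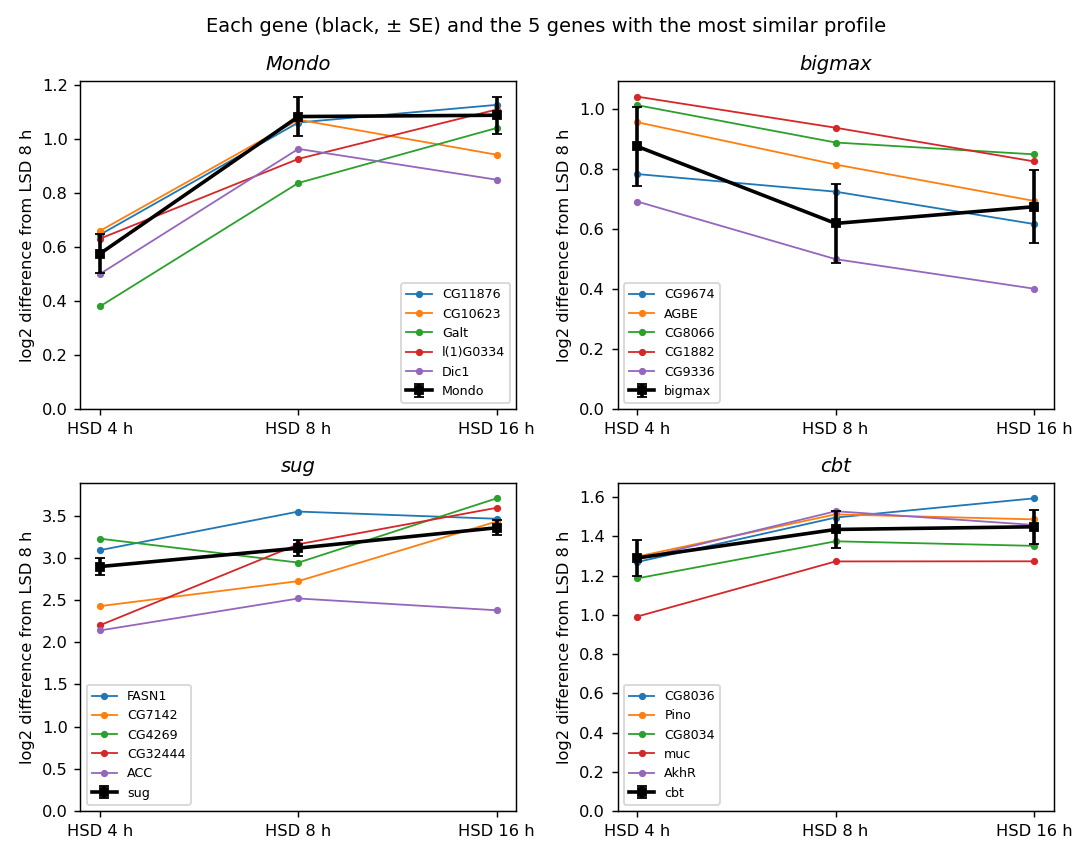
Mean log2 differences from LSD (vertical axes) at HSD 4 h, 8 h and 16 h for each of the 4 genes (black squares, ± SE) and the 5 genes with the smallest root mean square difference from it (coloured points). Mondo and its neighbours climb between 4 h and 8 h, while bigmax and its neighbours are highest at 4 h. The neighbours were chosen for this likeness, and no difference in bigmax between HSD times passed the test. For bigmax, HSD 4 h replicate 1 was the highest of the 14 libraries.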

How the data were processed

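Per the labels' protocols, RNA of whole larvae was depleted of ribosomal RNA, made into stranded libraries and read as 75 bp single-end reads in 2 sequencing replicates. Trimmomatic, TopHat2 2.1.0, HTSeq and limma are the tools named in the submitters' processing notes. For the build, annotation and strand setting, nothing is given in the sources used here. The deposited signal values are read counts scaled by the authors (column sums 910679 to 1063358), and 100% of them equal a whole number of reads to within 0.01 read. The authors deposited log2 fold changes, p-values and test scores in the same table, per the file headers.

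Here limma 3.58.1 in R 4.3.3 was fitted to log2(value + 0.5) of the 10114 genes that reached 1 in 3 or more libraries, with 4 groups, a variance trend, 10 residual degrees of freedom and 6 comparisons. The values had been taken for CPM when the tests were chosen, and the test was kept. The fit was tested on simulated data. Groups and replicate numbers come from the titles. Within groups, 18 pairs of libraries gave chi-square per degree of freedom of 13.0 to 101, so none was a repeat of another. Positions come from the Ensembl annotation of BDGP6.54, matched by identifier for 9990 genes.

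The 4 genes and the gene lists were chosen with earlier results of these data known. Besides the 4, the text names the 3 members of each list with the smallest adjusted p at 8 h against LSD, genes that overlap the 4, and the 5 closest profiles; Pfk, Aldh-III, Myc, Hex-C, Gfat1, foxo, CG6295, TwdlJ, Amy-d and Amy-p were added after their values were seen. Alternatives covered pseudocount, filter, scaling, fit, weights, a replicate block, left-out libraries and edgeR 4.0.16 on the recovered reads. Counting floors of 3 reads cover counting error only.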

Additional observations from a re-analysis of the deposited data

Results flagged for a closer look

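In LSD, bigmax lay at 17.8 in replicate 4 and at 13.7, 13.1 and 13.5 in replicates 1, 2 and 3. The gap between replicate 4 and the next library was 0.881 of the range of the group (0.8806), above Dixon's 95% critical value for 4 libraries. Of the 8 sets of 4 libraries looked at (4 genes in HSD 16 h and in LSD) this was the only one past its limit, and chance gives about 1 such set in 20. Without LSD replicate 4 the log2 differences of bigmax from LSD were 0.98 at 4 h, 0.72 at 8 h and 0.77 at 16 h, against 0.88, 0.62 and 0.68 with it.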

How the results depend on the processing

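The 12 differences of Mondo, bigmax, sug and cbt from LSD, that of Mondo at 8 h against 4 h, and those of Mondo and sug at 16 h against 4 h kept direction and call in each of the 26 alternatives. The highest limma adjusted p was that of bigmax at 8 h, 0.0415 without LSD replicates 2 and 3 and HSD 16 h replicate 2. Within HSD, differences near 0 changed sign, and the cause was not tested. Mondo at 16 h against 8 h gave -0.0036 with median-of-ratios scaling, 0.22 under quantile normalization (adjusted p = 0.0327), and -0.0231 to 0.0312 with single libraries left out. Bigmax gave -0.0120 with array weights and -0.0339 to 0.119, and cbt -0.0341 to 0.0717. Sug at 16 h against 8 h passed under quantile normalization (0.43, adjusted p = 0.00547), in a fit of the compared groups alone (0.24, 0.0445) and with array weights (0.23, 0.0443), and gave 0.185 to 0.333 with libraries left out. Cbt at 16 h against 4 h passed under quantile normalization (0.31, 0.0156). That normalization moved the median of all genes by at most 0.0893. With the length of the longest transcript, Mondo at 8 h lay at 55.4 per kilobase.

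In a fit of the compared groups alone, 1411 genes were called at 4 h against LSD (2449 otherwise). At 8 h against 4 h of HSD 931 genes were called, 1770 with array weights and 320 to 1274 with single libraries left out. With the replicate number as a block 159 were called there; Mondo gave an adjusted p of 0.0405, and the block changed no call of the 4 genes. Deviations of libraries of different groups with the same replicate number correlated at r -0.460 to 0.350 across genes (18 pairs, median -0.00966). Pairs with different numbers gave r -0.503 to 0.557 (55 pairs, median 0.0324). Whether equal numbers mark a shared batch was not tested, since deviations from the mean of a small group are tied to each other. EdgeR called 2440, 3452 and 3984 genes at 4, 8 and 16 h against LSD. Low genes such as CG6277 are limited by depth.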
